A study of Mus musculus with 6 samples.

Results

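The mitochondrial carriers of solute carrier family 25 were described in livers that had lost Selenoo and in livers that kept it. Members were the rows of the deposited gene table whose symbol begins with Slc25a and a number, which gave 45 of 16140 genes; 39 of them were among the 12173 genes with enough counts to be tested. The knockout livers carried the genotype Selofl/fl Alb-Cre, in which Cre recombinase under the albumin promoter removes Selenoo in hepatocytes, and the control livers were Selofl/fl without Cre. Both groups were on a normal diet and were sequenced as poly(A)-selected bulk RNA, with 3 libraries each. Cells of the liver other than hepatocytes may keep Selenoo in this model, and bulk RNA does not show which cells do. An effect of Cre itself cannot be told apart from loss of the gene. The sources used here give no age, sex or strain. Nothing in the labels ties each library to a separate animal, so every p-value reflects only how these libraries vary, which may be technical.

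Mitochondrial carriers are small proteins of the inner mitochondrial membrane that are encoded in the nucleus. Each exchanges or imports a particular solute, such as ADP for ATP, phosphate, citrate, malate, ornithine, aspartate, acylcarnitine, coenzyme A or iron, between cytosol and matrix. In the liver they join the matrix steps of the urea cycle, gluconeogenesis, fatty acid oxidation and lipid synthesis to those in the cytosol. Selenoo encodes the mitochondrial selenoprotein SelO, an enzyme that attaches AMP to other proteins.

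Total estimated counts per library were between 15550289 and 18680195. Selenoo itself measured 6.29, 9.31 and 7.67 CPM (counts scaled to a common library size with TMM factors) in knockout livers, against 94.8, 84.2 and 96.0 CPM in control livers, which left 8.46% of the control mean. All 6 hepatocyte markers checked were present, with summed levels of 154341 to 180106 CPM in knockout and 144155 to 185002 CPM in control livers. Summed markers of Kupffer cells and macrophages were at 212 to 235 CPM in knockout and 243 to 333 CPM in control livers, those of endothelial cells at 179.8 to 224 and 214 to 236 CPM, those of neutrophils at 0.682 to 1.24 and 1.68 to 2.69 CPM, and all 4 skeletal muscle markers together at no more than 0.229 and 0.465 CPM. The T and NK cell markers summed to 0.796 to 2.06 CPM in knockout and 2.28 to 4.75 CPM in control livers, and the B cell markers to 1.88 to 4.17 and 4.16 to 9.35 CPM. Lyve1, an endothelial marker, was called lower, at 7.52, 11 and 8.24 CPM in knockout livers, against 21.1, 21.3 and 16.8 CPM in control livers (log2 fold change -1.15 ± 0.18, SE; edgeR, adjusted p 0.0196). The other endothelial markers were not called and their groups overlapped. Their log2 fold changes were 0.28 for Kdr, -0.01 for Stab2, -0.22 for Pecam1 and -0.21 for Clec4g. The part of these cells in the carrier levels was not tested, and in bulk RNA fewer cells of a type and less RNA per cell cannot be told apart. With all libraries 181 genes were called, or 1.49% of those tested, and 668 without control replicate 3.

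As a family, the carriers sat slightly higher in the knockout livers. Slc25a25 and Slc25a33 rose and no member fell at an adjusted p under 0.05 in edgeR's quasi-likelihood test, so that 2 of 39 were called higher (5.13%), where 0.772% of all tested genes were called higher and 0.715% lower. At an unadjusted p under 0.05 there were 13 members with a positive and 3 with a negative fold change, beside 9.27% and 9.26% of all tested genes. The 3 with a negative one were Slc25a45, Slc25a36 and Slc25a29. DESeq2's Wald test called 10 members higher and 0 lower, beside 3.17% and 2.24% of the genes with an adjusted p in that test. By the q value of the authors' deposited table, 9 members passed 0.05, all with a positive fold change, beside 2.03% of the genes there with a q value that were higher and 1.44% that were lower.

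The median log2 fold change (knockout over control) of the 39 members was 0.26, against -0.02 over all tested genes. A positive value was found in 29 of the 39, beside 47.8% of all tested genes. With upper-quartile scaling it was found in 28, beside 42.8% of all tested genes. The CPM values of knockout and control livers did not overlap in 23 members, 20 higher and 3 lower in knockout livers, beside 13.3% and 11.9% of all tested genes. Of these members, Slc25a16, Slc25a24, Slc25a30, Slc25a32 and Slc25a39 overlapped on the authors' FPKM, a level per transcript length. Measured in each library from the control mean of every gene, the members' median log2 difference was 0.32, 0.27 and 0.26 in knockout livers, against -0.06, -0.04 and 0.06 in control livers. Over all tested genes the same median lay between -0.013 and 0.012 in every library. Each control library is part of the control mean, which draws the control values toward it by construction, and the knockout libraries are not. The count of members called higher was 1 without knockout replicate 1 or 2, 2 without knockout replicate 3 or control replicate 2, 5 without control replicate 1 and 9 without control replicate 3.

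**Figure D1:**
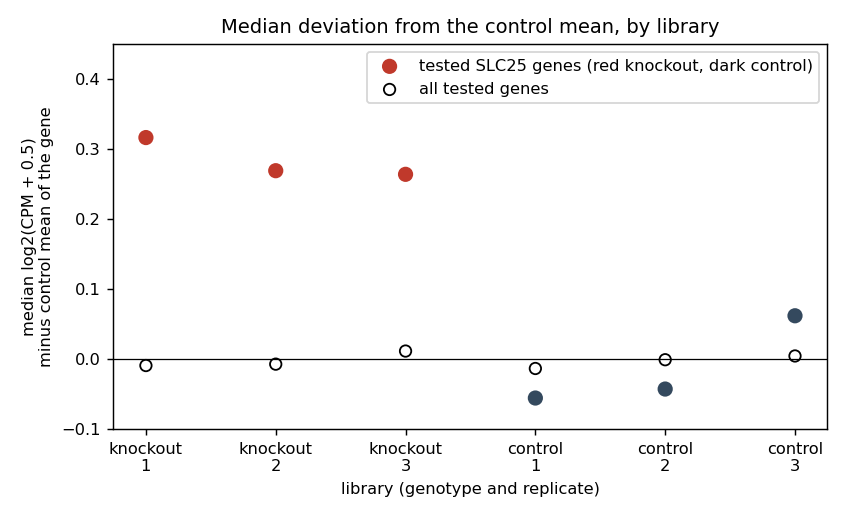
Median over the tested SLC25 genes (filled points, knockout in red and control in dark grey) and over all tested genes (open points) of log2(CPM + 0.5) minus the control mean of the gene, for each library on the x axis. The SLC25 medians are 0.32, 0.27 and 0.26 in knockout libraries and -0.06, -0.04 and 0.06 in control libraries. The medians over all genes stay near 0. The control mean includes each control library, which draws the control medians toward it.

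**Figure D2:**
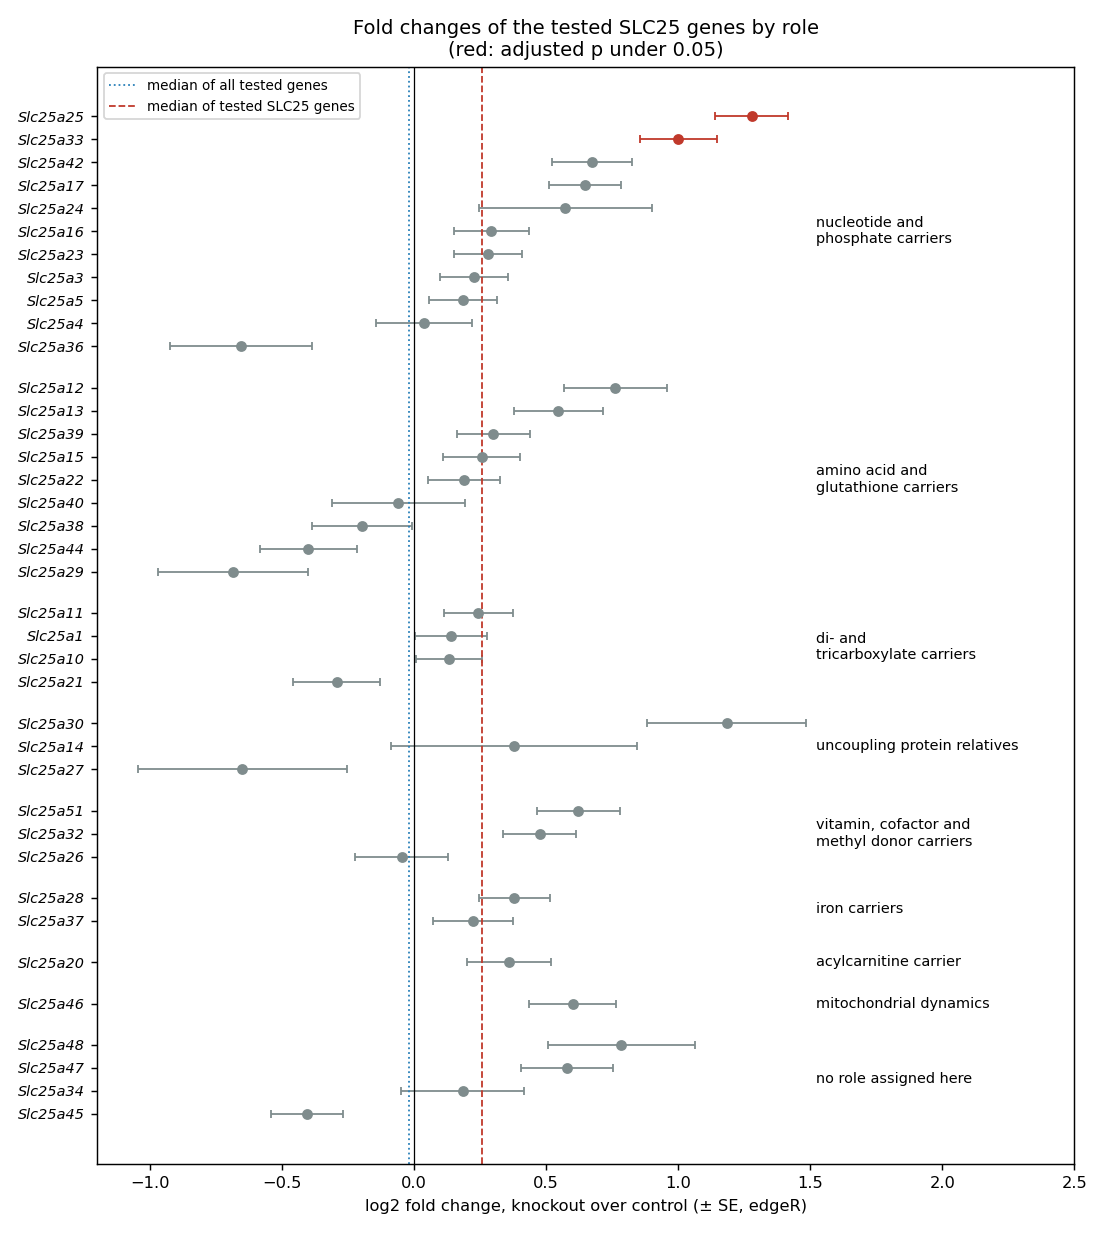
Log2 fold change of knockout over control (x axis, ± SE from edgeR) for the tested SLC25 genes but 1, grouped by role down the page. Red points have an adjusted p under 0.05; the dashed line is the median of all 39 tested SLC25 genes (0.26) and the dotted line that of all tested genes (-0.02).

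Slc25a25 had the smallest p among the members. It encodes an ATP-Mg/phosphate carrier that is regulated by calcium and adjusts the adenine nucleotide content of the matrix (NCBI Gene 227731, chr2:32414487-32451445 on the minus strand of GRCm38). Its level was 291, 278 and 243 CPM in knockout livers, against 109.5, 121 and 105 CPM in control livers. Every knockout library lay far above the highest control. The means were 271 ± 24.7 and 112 ± 8.15 CPM (SD, n = 3 each), which is a log2 fold change of 1.28 ± 0.14 (SE; edgeR, adjusted p 0.00589). The adjusted p was 0.00767 to 0.0415 when single libraries were left out. In the authors' deposited table its log2 fold change, also knockout over control, was 1.28. In 379 bases its exons overlap those of Naif1 on the opposite strand, and no source used here states whether counting used strand; Naif1 measured 1.93 to 2.69 CPM in knockout and 1.48 to 3.20 CPM in control livers.

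Slc25a33 was the other carrier that rose. It transports pyrimidine nucleotides into mitochondria and is known to be induced by insulin and IGF-1 in cultured cells (NCBI Gene 70556, chr4:149744036-149774277 on the minus strand of GRCm38). It measured 36.8, 34.4 and 29.3 CPM in knockout livers, against 16.5, 18.8 and 14.9 CPM in control livers, and the groups did not overlap. The means were 33.5 ± 3.80 and 16.7 ± 1.97 CPM (SD, n = 3 each). These gave a log2 fold change of 1.0 ± 0.15 (SE; edgeR, adjusted p 0.015). The adjusted p was 0.0694 without knockout replicate 1 and 0.0772 without knockout replicate 2. The alternatives for Slc25a33 gave adjusted p-values of 3.12e-06 to 0.0772. An antisense gene, Gm13068, shares 281 exon bases with Slc25a33 and has no row in the table.

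Promoter stretches of both called carriers are shown because only these 2 of the 39 tested carriers were called. RefSeq (GRCm38.p6) gives Slc25a25 3 separate transcription starts, and the 250 bases before the most downstream of them hold a full cAMP response element. The stretches before its other starts hold none of the motifs marked here and are not printed. The 250 bases before the start of Slc25a33 hold the half-site of the cAMP response element and an E-box. Capitals mark these motifs, read 5′ to 3′ on the strand of the gene, with the start directly after the last base.
Slc25a25, most downstream start, chr2:32424067-32424316, minus strand: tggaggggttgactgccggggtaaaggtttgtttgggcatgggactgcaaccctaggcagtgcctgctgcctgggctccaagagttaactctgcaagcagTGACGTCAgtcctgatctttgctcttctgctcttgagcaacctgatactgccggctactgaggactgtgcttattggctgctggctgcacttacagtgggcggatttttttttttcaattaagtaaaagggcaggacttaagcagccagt
Slc25a33, chr4:149774268-149774517, minus strand: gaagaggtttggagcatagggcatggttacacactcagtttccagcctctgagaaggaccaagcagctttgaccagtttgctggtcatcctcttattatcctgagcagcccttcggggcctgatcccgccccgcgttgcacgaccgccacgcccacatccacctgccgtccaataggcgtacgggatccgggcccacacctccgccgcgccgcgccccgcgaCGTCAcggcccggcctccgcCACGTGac

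The cAMP response element TGACGTCA begins 150 bases before that start of Slc25a25. It occurs before 1.55% of all 32851 starts in the RefSeq table, and the other starts of Slc25a25 do not have it. The half-site TGACG, which the full element contains on both strands, begins 28 bases before the start of Slc25a33. It was found before 17.8% of all starts. The E-box CACGTG begins 8 bases before the RefSeq start of Slc25a33 and was found before 6.02%. The gene position given above is from GENCODE and begins further upstream, at base 149774277, so by that position this E-box lies inside the gene. By gene, with any start counted, 35 members matched the table. The full element was found in 2 of the 35, Slc25a25 and Slc25a36, whose fold change was negative, and in 1.77% of all genes. The half-site was found in 10 and the E-box in 7 of the 35, beside 19.8% and 6.86% of all genes. Other motifs searched on both strands were GTAAACA (FOXO), TCAAGGTCA (ERR), GCGCATGCG (NRF1 core) and TTGCGCAA (C/EBP), each in 0 of the 35 and in 3.54%, 0.422%, 1.64% and 0.185% of all genes. TGANTCA (AP-1) was found in 2 and CCAAT in 18 of the 35, beside 7.82% and 37.5% of all genes. The motifs were chosen with the fold changes known, and the counts do not show which start of Slc25a25 the reads came from.

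Both called genes belong to the nucleotide and phosphate carriers. Among 12 listed, 11 were tested, and 10 had a positive fold change (9 with upper-quartile scaling or on FPKM). On CPM, 9 had groups that did not overlap and were higher, and 1, Slc25a36, did not overlap and was lower. Over all tested genes 47.8% had a positive fold change, and 13.3% and 11.9% had groups that did not overlap and were higher or lower in knockout livers. Slc25a42, which brings coenzyme A into the matrix, measured 134, 129.9 and 102 CPM in knockout livers, against 83.9, 69.0 and 76.7 CPM in control livers. Its log2 fold change of 0.67 ± 0.15 (SE) came with an edgeR adjusted p of 0.0628 and 0.00286 in DESeq2. Over all alternatives the adjusted p of Slc25a42 ran between 0.00286 and 0.255. Slc25a17, the peroxisomal carrier of coenzyme A, FAD and NAD, measured 30.9, 36.8 and 34.2 CPM in knockout livers, against 19.6, 24.2 and 21.2 CPM in control livers. On the log2 scale the fold change was 0.65 ± 0.14 (SE), and edgeR's adjusted p was 0.054 and 0.00407 in DESeq2. The alternatives for Slc25a17 gave adjusted p-values of 0.00407 to 0.23. In both genes the lowest knockout library lay above the highest control.

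The other members of that group had smaller or less certain differences. Slc25a23, the more abundant ATP-Mg/phosphate carrier, had 468, 430.3 and 426 CPM in knockout livers, against 349, 373 and 369.7 CPM in control livers, a log2 fold change of 0.28 ± 0.13 (SE) at an edgeR adjusted p of 0.288. The phosphate carrier Slc25a3, which supplies ATP synthase, had 196, 221 and 212 CPM in knockout livers, against 175, 173 and 189 CPM in control livers. Slc25a5, the main ADP/ATP exchanger of the liver, had 294, 321 and 329 CPM in knockout livers, against 287, 264 and 279 CPM in control livers. Values of both genes did not overlap between the groups, but the log2 fold changes of 0.23 ± 0.13 and 0.18 ± 0.13 (SE) came with edgeR adjusted p-values of 0.376 and 0.467. With length trends removed the value of Slc25a5 was 0.28 (adjusted p 0.219). Slc25a4, the ADP/ATP exchanger of heart and muscle, was at 4.89, 6.46 and 5.0 CPM in knockout livers, against 5.03, 5.99 and 4.88 CPM in control livers, so its groups overlapped. Slc25a16, which is linked to coenzyme A in the matrix, and Slc25a24, a further ATP-Mg/phosphate carrier, did not overlap on CPM but overlapped on FPKM. The log2 fold changes of these genes were 0.29 ± 0.14 and 0.57 ± 0.33 (SE), with Slc25a24 at no more than 1.37 CPM in any library. Slc25a36, a second pyrimidine nucleotide carrier, was low in both groups, at 1.18, 2.0 and 1.82 CPM in knockout livers, against 3.09, 2.53 and 2.28 CPM in control livers (log2 fold change -0.65 ± 0.27, SE; adjusted p 0.234 in edgeR's test).

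**Figure D3:**
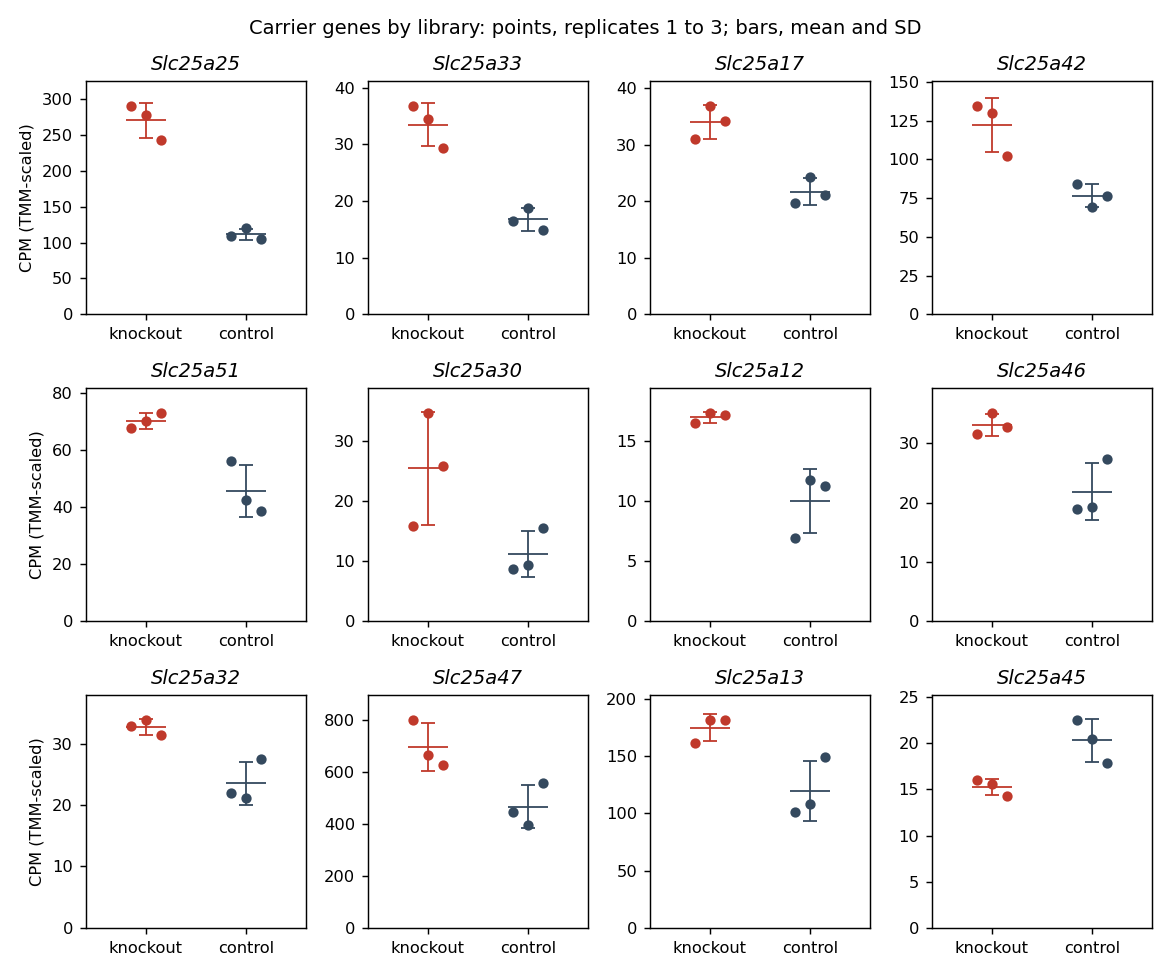
CPM scaled by TMM factors (y axis, linear from 0) of the 2 called carriers and the 10 next by p, by group on the x axis; points are libraries 1 to 3 from left to right, bars the mean and SD. In Slc25a45 the 3 knockout libraries lie below the 3 control libraries, and in the other panels they lie above them.

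Slc25a51, the importer of NAD, measured 67.6, 70.1 and 73.1 CPM in knockout livers, against 56.2, 42.4 and 38.6 CPM in control livers. Knockout over control gave a log2 fold change of 0.62 ± 0.16 (SE), and edgeR's adjusted p was 0.0871, 0.0143 without control replicate 1 and 0.014 in DESeq2. Over all alternatives the adjusted p of Slc25a51 ran between 0.014 and 0.277. Slc25a32, the folate and FAD carrier, had 32.8, 33.9 and 31.4 CPM in knockout livers, against 21.9, 21.1 and 27.5 CPM in control livers, a log2 fold change of 0.48 ± 0.14 (SE; adjusted p 0.117 in edgeR's test). Without control replicate 3 the edgeR adjusted p of Slc25a32 was 0.0306, and over all alternatives it was 0.0306 to 0.357. In these 2 genes the CPM values did not overlap between the groups. On FPKM those of Slc25a32 overlapped, at 5.92 in knockout replicate 3 and 6.05 in control replicate 3. The S-adenosylmethionine carrier Slc25a26 overlapped between the groups, with a log2 fold change of -0.05 ± 0.18 (SE), or -0.12 to 0.03 with single libraries left out. Its exons share 144 bases with those of Lrig1 on the opposite strand. Lrig1 measured 15.6 to 19.1 CPM in knockout and 12.2 to 23.9 CPM in control livers, and its part in the Slc25a26 level was not tested.

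Among the amino acid and glutathione carriers the fold change was above 0 in 5 of 9 tested and below it in 4, and none was called by edgeR (0 of 9, with 2 higher and 1 lower at an unadjusted p under 0.05; DESeq2 called the 2 described next). The aspartate-glutamate carriers, which serve the malate-aspartate shuttle and supply aspartate to the urea cycle, had the highest fold changes of the group. Slc25a12, known as aralar, had 16.5, 17.4 and 17.2 CPM in knockout livers, against 6.91, 11.7 and 11.3 CPM in control livers. Its log2 fold change was 0.76 ± 0.19 (SE), at an edgeR adjusted p of 0.0888, 0.0485 without control replicate 1, and 0.0191 to 0.274 over all alternatives. Slc25a13, known as citrin and the main form in liver, had 161, 182 and 182 CPM in knockout livers, against 102, 108 and 149 CPM in control livers. This was a log2 fold change of 0.55 ± 0.17 (SE), and edgeR's adjusted p was 0.135 and 0.0235 without control replicate 3. The alternatives for Slc25a13 gave adjusted p-values of 0.0235 to 0.371. That library was the highest control in Slc25a13 and still lay below every knockout library.

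The remaining amino acid carriers showed no common direction. Slc25a15, which exchanges ornithine for citrulline in the urea cycle, had 126, 118 and 133 CPM in knockout livers, against 94.3, 99.1 and 123 CPM in control livers, and the groups overlapped. Slc25a22, a glutamate carrier, overlapped as well, with 271, 246 and 279 CPM in knockout livers, against 246, 210.2 and 243 CPM in control livers. Slc25a39, which imports glutathione, had 571, 590.3 and 537 CPM in knockout livers, against 422, 454 and 503 CPM in control livers. Its groups did not overlap, and the log2 fold change of 0.30 ± 0.14 (SE) came with an edgeR adjusted p of 0.281. On FPKM its groups overlapped, and limma on log2(FPKM + 1) gave a log2 fold change of 0.12 with an adjusted p of 0.66; over all alternatives the adjusted p was 0.134 to 0.662. Slc25a44, the carrier of branched-chain amino acids, had a log2 fold change of -0.40 ± 0.18 (SE) with overlapping groups. Slc25a29, a carrier of basic amino acids, had 3.71, 1.71 and 1.99 CPM in knockout livers, against 4.23, 3.88 and 3.89 CPM in control livers (log2 fold change -0.69 ± 0.29, SE; adjusted p 0.239 in edgeR's test). Its log2 fold change ran between -1.10 and -0.48 when single libraries were left out. Slc25a38, a glycine carrier needed for haem synthesis, and Slc25a40, the relative of Slc25a39, overlapped between the groups, at -0.20 ± 0.19 and -0.06 ± 0.25 (SE), and both changed sign when some single libraries were left out.

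Slc25a29 and Slc25a47 lie head to head on chromosome 12 of GRCm38, on opposite strands with 162 bases between their annotated transcription starts. Their fold changes had opposite signs. Slc25a47, a carrier made almost exclusively in hepatocytes, measured 802, 665 and 626 CPM in knockout livers, against 445, 397 and 560.0 CPM in control livers. The means were 698 ± 92.6 and 467 ± 83.6 CPM (SD, n = 3 each). On the log2 scale the fold change was 0.58 ± 0.17 (SE), and edgeR's adjusted p was 0.128, 0.042 without control replicate 3 and 0.0281 in DESeq2. Over all alternatives the adjusted p of Slc25a47 ran between 0.0281 and 0.358.

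Di- and tricarboxylate carriers, which move citrate, malate and 2-oxoglutarate for lipid synthesis, gluconeogenesis and the shuttles, differed little. None of the 4 tested was called by edgeR or DESeq2, 0 reached an unadjusted p under 0.05 in edgeR, and all had overlapping groups. The citrate carrier Slc25a1 had 279, 251 and 259.7 CPM in knockout livers, against 218, 235 and 263 CPM in control livers (log2 fold change 0.14 ± 0.14, SE, and 0.08 to 0.22 with single libraries left out), and the dicarboxylate carrier Slc25a10 was at 0.13 ± 0.12 (SE). The highest fold change of the group was that of the 2-oxoglutarate/malate carrier Slc25a11, at 0.24 ± 0.13 (SE). The lowest was that of the oxodicarboxylate carrier Slc25a21, at -0.29 ± 0.17 (SE). In 189 bases the exons of Slc25a11 overlap those of Rnf167 on the opposite strand. Rnf167 measured 26.1 to 30.4 CPM in knockout and 29.7 to 31.9 CPM in control livers, and its part in the Slc25a11 level was not tested.

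Slc25a20, the carnitine-acylcarnitine carrier that brings fatty acids into the matrix for oxidation, had 112, 121 and 113 CPM in knockout livers, against 109.5, 74.7 and 85.3 CPM in control livers. The knockout libraries lay just above control replicate 1 and well above the other controls. Knockout over control gave a log2 fold change of 0.36 ± 0.16 (SE), and edgeR's adjusted p was 0.271 and 0.0582 without control replicate 1. The alternatives for Slc25a20 gave adjusted p-values of 0.0582 to 0.557.

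Among relatives of the uncoupling proteins, Slc25a30, first described in kidney mitochondria, had the second highest fold change of all members. It measured 15.9, 34.6 and 25.8 CPM in knockout livers, against 8.59, 9.40 and 15.5 CPM in control livers. Knockout replicate 1 and control replicate 3 were nearly equal. On FPKM these libraries had 10.93 and 10.96, so the groups overlapped there. The log2 fold change of 1.18 ± 0.30 (SE) came with an edgeR adjusted p of 0.0888, 0.0292 without control replicate 3 and 0.00405 in DESeq2. Over all alternatives the adjusted p of Slc25a30 ran between 0.00405 and 0.294. Slc25a27 and Slc25a14, known mainly from brain, were at or below 1.31 CPM in every knockout library and at or below 3.15 CPM in every control library, with overlapping groups.

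Of the iron carriers, Slc25a28 (mitoferrin 2, the form of most tissues) had 23.3, 23.4 and 21.9 CPM in knockout livers, against 15.3, 19.4 and 17.9 CPM in control livers, and the groups did not overlap (log2 fold change 0.38 ± 0.13, SE; adjusted p 0.181 in edgeR's test). Slc25a37, mitoferrin 1, which supplies iron to developing red cells, overlapped between the groups, with 23.4, 27.1 and 24.0 CPM in knockout livers, against 24.8, 17.9 and 21.2 CPM in control livers. Erythroid markers summed to 101 to 924 CPM in knockout and 128 to 489 CPM in control livers, and their part in the mitoferrin 1 level was not tested. The estimated counts of Slc25a37 were not whole numbers in any of the 6 libraries, so part of its reads was shared out among loci by the counting.

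Slc25a46, an outer membrane protein that takes part in mitochondrial fission and fusion, had 31.6, 35.1 and 32.7 CPM in knockout livers, against 18.9, 19.2 and 27.4 CPM in control livers. The groups did not overlap, and the log2 fold change of 0.60 ± 0.16 (SE) came with an edgeR adjusted p of 0.104 and 0.0179 without control replicate 3. The alternatives for Slc25a46 gave adjusted p-values of 0.0179 to 0.327. Slc25a45, to which no transport role is assigned here, had the smallest p of the members with a negative fold change. It measured 16, 15.5 and 14.3 CPM in knockout livers, against 22.5, 20.5 and 17.9 CPM in control livers. This was a log2 fold change of -0.41 ± 0.14 (SE), and edgeR's adjusted p was 0.163. Slc25a48 was not called in edgeR with all libraries, at a log2 fold change of 0.78 ± 0.28 (SE; adjusted p 0.183), from a level of 3.37 to 3.65 CPM in knockout and 1.27 to 2.85 CPM in control livers. It was called without control replicate 3 (edgeR, adjusted p 0.0463), and over single libraries left out its adjusted p was 0.0463 to 0.391. Slc25a34, likewise without an assigned role, overlapped between the groups at 0.18 ± 0.23 (SE), or -0.0096 to 0.49 with single libraries left out.

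Levels per transcript length, given as the authors' FPKM, covered a wide range. The 8 most abundant carriers over all libraries were Slc25a47, Slc25a39, Slc25a5, Slc25a1, Slc25a3, Slc25a23, Slc25a22 and Slc25a20, with means over all libraries between 438 FPKM for Slc25a47 and 68.3 FPKM for Slc25a20. Together they made up 78.0% to 79.3% of the summed FPKM of the 45 members in knockout and 79.5% to 81.4% in control livers. Slc25a47 stood at 518 ± 82.5 FPKM in knockout and 359 ± 66.2 FPKM in control livers (SD, n = 3 each), and Slc25a39 at 394 ± 26 and 362 ± 15.8 FPKM, so in control livers the means of both lay within the spread of Slc25a47. Slc25a25 stood ninth over all libraries, at 90.9 ± 10.5 FPKM in knockout and 39 ± 4.56 FPKM in control livers (SD, n = 3 each). In knockout livers its level lay above that of Slc25a20, at 75.7 ± 3.31 FPKM, and in control livers below it, at 60.8 ± 8.42 FPKM.

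**Figure D4:**
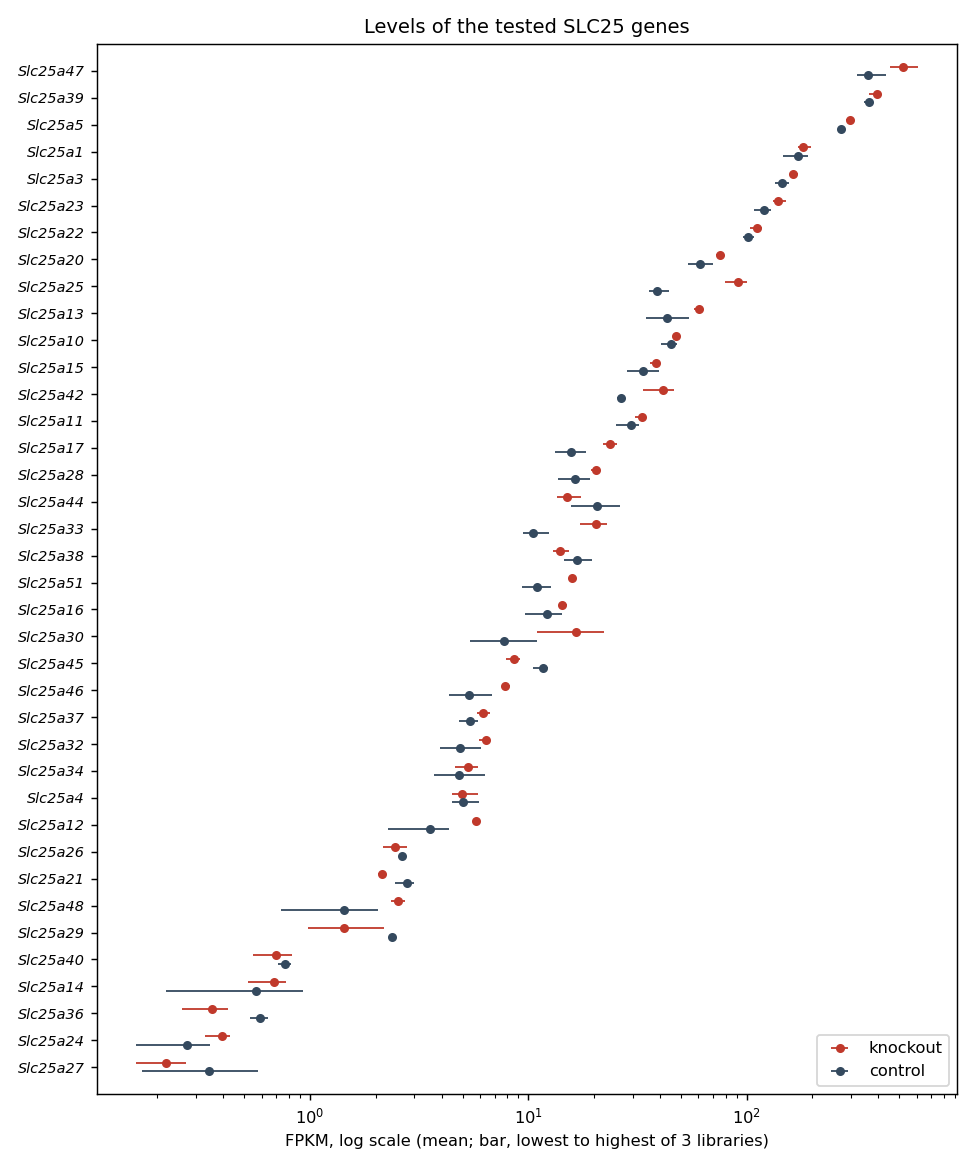
Levels of the tested SLC25 genes but 1 in FPKM (x axis, log scale), ordered by the mean over all libraries, with knockout drawn above control for each gene. Points are group means and bars run from the lowest to the highest of 3 libraries; Slc25a47 is highest, at 518 FPKM in knockout and 359 FPKM in control livers.

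The 6 members that were not tested had at most 9 counts in any library. They were Slc25a31, the ADP/ATP exchanger of testis, Slc25a2, an ornithine carrier, Slc25a18, a glutamate carrier known mainly from brain, and Slc25a35, Slc25a43 and Slc25a53. Slc25a18 had 1, 0 and 2 counts in knockout livers and 0 counts in each control library, where 0 allows up to 3 counts, or 0.161 to 0.193 CPM. Slc25a31 had 3, 0 and 0 counts in knockout livers and 0, 0 and 1 in control livers. No fold change is given for these genes, because both groups lie at or near that limit. Such limits cover counting error only: the libraries were amplified by PCR, and reads of one molecule cannot be recognised.

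Ratios of FPKM between related carriers in the same library were compared for 6 pairs of close relatives. The ratio of Slc25a25 to Slc25a23 was 0.661, 0.686 and 0.606 in knockout livers, against 0.332, 0.343 and 0.30 in control livers, a mean of 0.651 ± 0.0412 and 0.325 ± 0.0222 (SD, n = 3 each). For the pyrimidine nucleotide carriers the ratio of Slc25a33 to Slc25a36 was 87.9, 49.3 and 44.4 in knockout livers, against 15.2, 20.7 and 17.8 in control livers. In these 2 pairs the groups did not overlap, and the exact two-sided permutation p was 0.1, the smallest that 3 against 3 allow, or 0.3 after Benjamini-Hochberg adjustment over the 6 pairs. Both pairs have a called carrier as the numerator, so their separation is no further evidence. That of Slc25a33 to Slc25a36 was fixed beforehand, since on FPKM the 2 genes were each apart in opposite directions. Slc25a36 also rests on only 22 to 49 counts per library. Ratios of Slc25a13 to Slc25a12 (10 to 10.9 in knockout and 9.45 to 15.1 in control livers), of Slc25a5 to Slc25a4 (51.5 to 68.1 and 45.7 to 59.2), of Slc25a39 to Slc25a40 (438 to 744 and 447 to 526) and of Slc25a28 to Slc25a37 (3.09 to 3.54 and 2.33 to 3.99) overlapped. Reads of such relatives can be divided among them by the counting, although of the 45 members only Slc25a37 and Slc25a38 had counts that differed from whole numbers by more than 0.01.

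**Figure D5:**
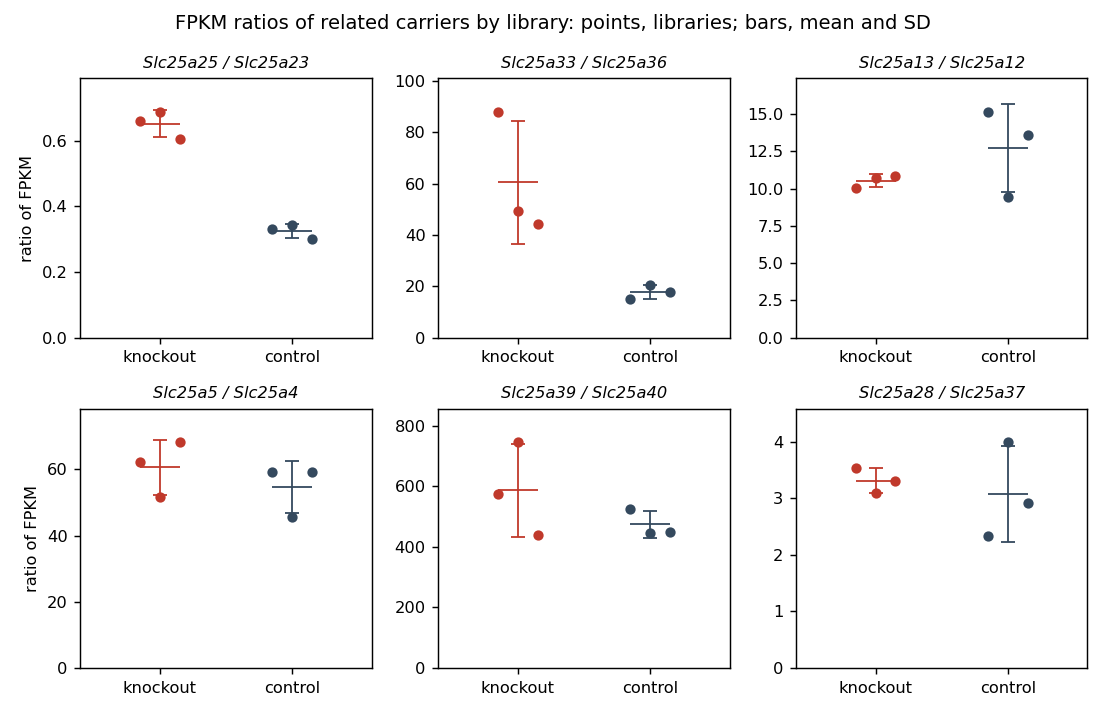
Ratio of FPKM between related carriers in the same library (y axis, linear from 0), by group on the x axis; points are libraries 1 to 3 from left to right, bars the mean and SD. The Slc25a25 to Slc25a23 ratio is 0.651 in knockout and 0.325 in control livers on average, and the Slc25a33 to Slc25a36 ratio is also separate between the groups, while the other 4 pairs overlap.

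Other genes of mitochondrial transport, and enzymes on either side of the carriers, were listed by role. Among 71 with a row, 69 were tested, and 1 was called higher and 0 lower in edgeR (11 and 2 at an unadjusted p under 0.05; DESeq2 called 4 higher and 0 lower). Over all tested genes edgeR called 0.772% higher and 0.715% lower, and DESeq2 3.17% and 2.24%. The list's called share in edgeR, which rests on 1 gene, was close to that of all genes. An unadjusted p under 0.05 was found in 15.9% of the list higher and 2.90% lower, beside 9.27% and 9.26% of all tested genes. Groups did not overlap in 26.1% higher and 2.90% lower, beside 13.3% and 11.9%. The median log2 fold change of the list was 0.15, with 48 of 69 positive (42 with upper-quartile scaling and 41 on FPKM). Over all tested genes 47.8% were positive and the median was -0.02. The called gene was Pck1, the cytosolic enzyme that turns oxaloacetate into phosphoenolpyruvate, at 4654, 4260.2 and 4521 CPM in knockout livers, against 2683, 2429 and 2834 CPM in control livers. Its log2 fold change was 0.76 ± 0.15 (SE), at an edgeR adjusted p of 0.0413. It was not called with upper-quartile scaling, with the replicate number as a block, by limma on FPKM, or without knockout replicate 1, 2 or 3 or control replicate 2.

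Within that list the carriers named otherwise gave mixed values: Ucp2, an uncoupling protein, had a log2 fold change of -0.40 ± 0.17 (SE), Mtch2 0.22 ± 0.15 and Mtch1 -0.01 ± 0.13. The other inner membrane transporters had 14 of 19 positive and a median of 0.21, led by the proton-pumping transhydrogenase Nnt at 0.94 ± 0.22 (SE; adjusted p 0.0736 in edgeR's test) and the sodium-calcium exchanger Slc8b1 at 0.72 ± 0.18 (SE; adjusted p 0.0823). The pyruvate carrier subunits Mpc1 and Mpc2 were at -0.12 ± 0.20 and 0.01 ± 0.19 (SE). In the machinery that imports carriers into mitochondria 5 of 13 were positive, with a median of -0.08, which is near the values over all tested genes. All 5 urea cycle enzymes and all 4 carnitine enzymes had positive values, with medians of 0.31 and 0.34, and none of them was called (0 of the urea cycle and 2 of the carnitine enzymes had an unadjusted p under 0.05 in edgeR; DESeq2 called 0 and 1).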

How the data were processed

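Poly(A)-selected mouse liver RNA was sequenced in 6 libraries. The authors deposited a single table with estimated counts, FPKM and TPM per gene and library, per the file headers, together with group means and their own comparison by DESeq2 (log2 fold changes, with p-values and q-values). Tools named in the submitters' processing notes are HISAT2, Bowtie2 and RSEM 1.3.1, with GRCm38; no source used here gives their order or whether strand was used. Columns were matched to samples by group and number. Deposited estimated counts were rounded to whole numbers (4.55% to 4.98% of values per library were not whole, by more than 0.01). Genes were filtered with filterByExpr and scaled by TMM, and all 12173 were fitted with the quasi-likelihood test of edgeR 4.0.16 (R 4.3.3), genotype being the only term, with Benjamini-Hochberg adjustment; SEs derive from the F statistic. The fit was also run on counts simulated from its own means and dispersions, which cannot show whether that model holds for these libraries. Libraries of the same group differed beyond sampling noise in every pair (chi-square over degrees of freedom 19.8 or more). Alternatives used DESeq2 1.42.0, limma 3.58.1, other scalings and filters, a replicate block, a correction for length trends within libraries, and every library left out. Transcript lengths for that trend came from the ratio of counts to FPKM. Gene positions and exon overlaps are from GENCODE vM21 on GRCm38. Genes described in full were Selenoo, the called members, the 10 next by p and the 8 highest by FPKM; others stand by role. The members and gene lists were chosen with earlier results of these data known. For 1 tested member, values are not reported here, though it counts in all totals.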

Additional observations from a re-analysis of the deposited data

How the results depend on the processing

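Slc25a25 kept its call in every alternative run, and Slc25a33 in all but those without knockout replicate 1 or 2. No member was called lower in any of them, and none of the 19 carriers described in full changed sign. With single libraries left out, the members called higher ranged from 1 to 9, all genes called from 43 to 668, called genes of the transport list from 0 to 5, and the members' median log2 fold change from 0.22 to 0.32. Without the low-count filter these were 5 members, 330 genes and 2 of the transport list, with the DESeq2 Wald test 10, 635 and 4, and at an adjusted p under 0.1 they were 7, 513 and 3. With length trends removed 283 genes were called and 3 members. Limma on log2(FPKM + 1) called 110 genes and 0 of the transport list, and on log2(FPKM + 0.1) it called 52 genes higher and 74 lower, against 94 and 87, and 0 of the transport list; the members' median was 0.16 and 0.19. Upper-quartile scaling gave a median of 0.22 and 0 of the transport list. The median over all tested genes moved down too, from -0.018 to -0.059 with upper-quartile scaling. On log2(FPKM + 1) it was -0.044 and on log2(FPKM + 0.1) it was -0.063. The cause of these differences was not tested. With the replicate number as a block, 87 genes, 2 members and 0 of the transport list were called, with edgeR adjusted p-values of 0.0332 for Slc25a25 and 0.0462 for Slc25a33. Same-numbered samples did not deviate together (r across genes of -0.16, -0.079 and -0.076), and r was -0.046 to 0.107 between the others. These deviations are from means of 3 libraries, so they cannot exclude a pairing by number. Members under about 2 CPM rest on few counts.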
